A study of Mus musculus with 6 samples.

Results

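The genes followed here belong to the interleukin 1 and Toll-like receptor pathway and were read in haematopoietic stem and progenitor cells. They are the receptor genes Il1r1, Il1rap, Il1rl1, Il18r1, Tlr2 and Tlr4, and the genes Myd88, Irak1, Irak4 and Traf6 of the signalling proteins inside the cell. They were taken by exact symbol, and all 10 members were found among the 38926 symbols of the deposited table. The cells came from femur and tibia marrow of C57BL/6 mice aged 8 to 12 weeks and were sorted as LSK cells (negative for lineage markers, positive for Sca1 and cKit), which are blood stem cells and the early progenitors around them. RNA was sequenced from untreated mice in 3 WT-labelled libraries (wild type) and 3 KO-labelled libraries (double knockout of the dopamine receptor genes Drd2 and Drd3). The sources used here do not say how the alleles were made or whether a library came from 1 animal or a pool, so the p-values cover the spread of these libraries alone, which may be technical.

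The interleukin 1 receptor family and the Toll-like receptors share an intracellular domain, the TIR domain. After ligand binding, this domain recruits the adaptor MYD88, which assembles the kinases IRAK4 and IRAK1. These activate the ubiquitin ligase TRAF6, and the signal passes through TAK1 and the IKK complex to NF-kB and MAP kinases. Stem and progenitor cells carry several of these receptors, and interleukin 1 is known to push them towards myeloid output.

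The values are FPKM, reads per kilobase of gene as the authors scaled them for depth, so that levels of different genes can be set side by side per length. Whole reads recovered from them came to 5245255 to 7143455 per library. The targeted gene Drd2 was at 0 in all 6 libraries. Drd3 read 1.62, 3.08 and 3.04 FPKM in KO replicates 1 to 3 and 0 in every WT-labelled library, which goes against the labels. All directions given are therefore between libraries as they are labelled, and which part of Drd3 was altered is not stated in the labels. The Y-linked gene Ddx3y was at 0 in KO replicates 1 and 3 and at 12.5 to 15.1 FPKM in the other 4, so the groups were not balanced for sex, and these same 2 libraries held 3182 and 1173 FPKM of the immunoglobulin gene Igkc against at most 4.93 elsewhere. The gate's own markers Kit and Ly6a (Sca1) were at 82.5 to 150 and at 110 to 161 FPKM over the 6 libraries.

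The receptor genes Il1r1, Il1rl1 and Il18r1 lie in one cluster on chromosome 1 and are transcribed in the same direction. Their promoters are shown because the values of these neighbours did not go the same way between the groups, although the difference of Il1rl1 did not pass a test. The bases before the first annotated start of each are given from RefSeq (build GRCm38.p6), 5′ to 3′, with 250 bases for Il1r1 and Il1rl1. For Il18r1 only the 136 bases between its start and the last exon of Il1rl1 are shown. Capitals mark matches, on either strand, to the GATA core GATAA or to the C/EBP motif TTGCNNAA.
Il1r1, chr1:40224830-40225079, + strand: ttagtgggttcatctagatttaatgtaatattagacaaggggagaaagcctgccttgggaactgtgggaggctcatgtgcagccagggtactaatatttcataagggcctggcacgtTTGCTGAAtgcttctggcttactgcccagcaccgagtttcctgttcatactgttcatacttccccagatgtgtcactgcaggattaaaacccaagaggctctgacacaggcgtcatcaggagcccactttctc
Il1rl1, chr1:40429320-40429569, + strand: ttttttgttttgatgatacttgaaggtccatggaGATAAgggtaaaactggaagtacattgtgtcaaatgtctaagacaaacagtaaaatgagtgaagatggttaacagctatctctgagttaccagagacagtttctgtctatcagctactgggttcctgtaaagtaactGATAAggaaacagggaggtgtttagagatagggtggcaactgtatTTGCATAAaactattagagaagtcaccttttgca
Il18r1, chr1:40465416-40465551, + strand: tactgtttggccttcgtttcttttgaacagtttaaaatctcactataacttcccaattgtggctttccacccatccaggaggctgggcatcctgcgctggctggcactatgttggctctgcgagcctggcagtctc
The Il1rl1 window held 2 matches to GATAA and 1 to TTGCNNAA, and the Il1r1 window held 1 match to TTGCNNAA. Of 32851 promoter windows of 250 bases, 22.6% held GATAA and 9.56% held TTGCNNAA, so either match is common. All 250 bases before each start were searched, which for Il18r1 includes the bases in the Il1rl1 exon that are not shown. The other 4 motifs, on both strands, had no match before these 3 starts: the ETS core GAGGAA (in 23.3% of windows), the RUNX core TGTGGT (14%), the AP-1 motif TGANTCA (6.75%) and a 10-letter NF-kB motif (0.356%). Il18r1 had no match to GATAA or TTGCNNAA before this start either. Windows before other RefSeq starts, not shown, held a match to GAGGAA for Il18r1 and matches to TGTGGT and GATAA for Il1rl1. A match describes letters in a window, and the table does not say which start these cells use. RefSeq promoters were matched for 9 of the 10 members.

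Of the members, 2 fell in the KO-labelled libraries and none rose. Il1r1, the signalling receptor of interleukin 1, fell 3.36-fold and Il18r1, the ligand-binding chain of the interleukin 18 receptor, fell 6.27-fold by the ratio of group means. Il1rl1, the receptor of interleukin 33 (also called ST2), was near 2 times higher (ratio of means 1.98) at a level too low for the main test. The other 7 members, which include both Toll-like receptors and all 4 intracellular genes, did not pass the test. The test was limma on log2(FPKM + 1) over the 11371 genes whose mean reached 1 FPKM, with Benjamini-Hochberg adjusted p-values called under 0.05. By that rule 5.43% of all tested genes were lower and 5.48% higher in the KO-labelled libraries, against 2 and 0 of 9 members tested. Il18r1 passed the filter only through its WT values, so this count gives no support beyond its single genes.

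**Figure D1:**
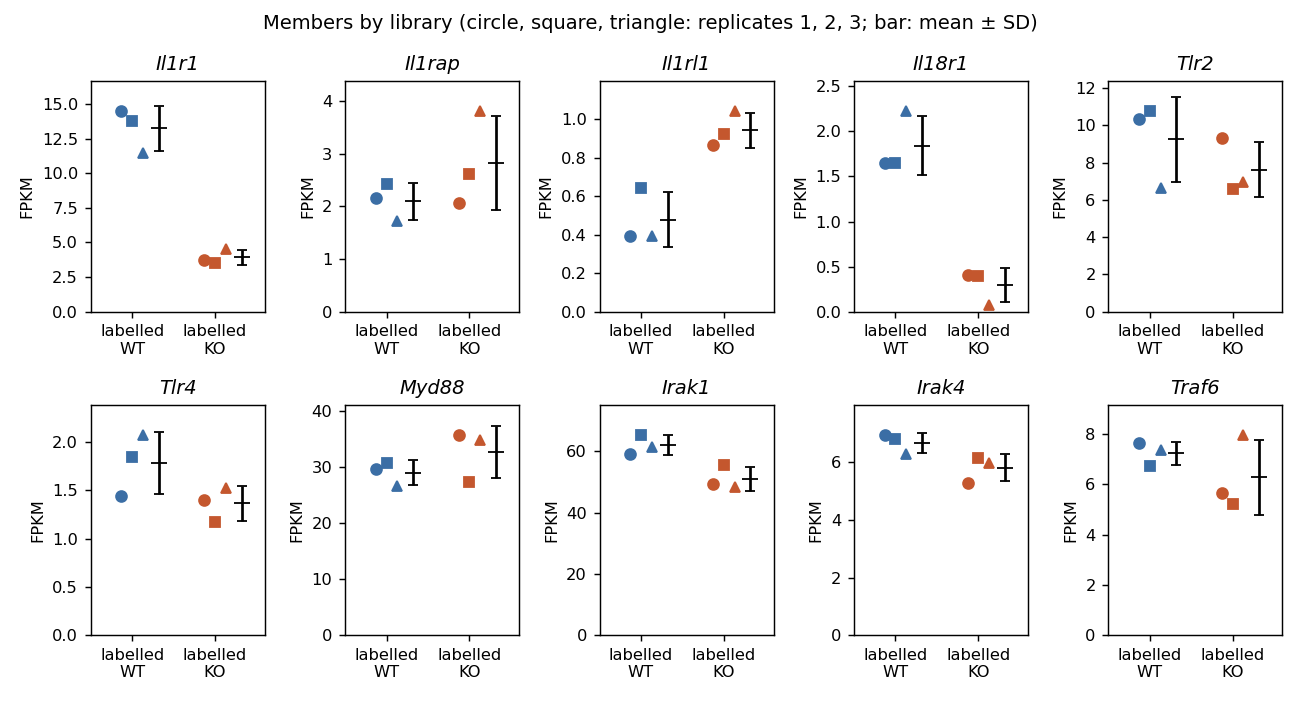
FPKM (vertical axes, from 0) of the 10 members in the 3 WT-labelled libraries (blue) and the 3 KO-labelled ones (orange), with the mean and SD of each group as a black bar. The groups are widely apart for Il1r1 (11.4 to 14.5 against 3.52 to 4.56 FPKM) and Il18r1 (1.65 to 2.22 against 0.0776 to 0.408 FPKM), and close together or mixed for most other members.

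Among the interleukin 1 family receptors, Il1r1 (chromosome 1, 40225080 to 40317257, plus strand, build GRCm38) was at 14.5, 13.8 and 11.4 FPKM in WT-labelled replicates 1 to 3 and at 3.76, 3.52 and 4.56 FPKM in the KO-labelled ones. Every KO-labelled library lay below every WT-labelled library, with a wide gap between the groups. The means were 13.2 ± 1.6 and 3.94 ± 0.543 FPKM (SD, n = 3 per group throughout), and log2(FPKM + 1) differed by -1.53 ± 0.15 (SE, limma adjusted p = 0.000712). The call held in all 13 alternative settings, with a limma adjusted p of 0.000154 to 0.00958. With the presence of Y-linked transcripts as a covariate (the Y covariate), where only KO replicate 2 is compared with the WT-labelled libraries, the difference was -1.65 (limma adjusted p = 0.00892).

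In bulk RNA, fewer cells of a type and less RNA per cell cannot be told apart. The gate's marker genes were not even between the groups. Of 6, 1 fell and 2 rose, where 5.43% and 5.48% of all tested genes did. The markers that fell or rose were chosen for naming after their values were seen. Cd34, a progenitor surface marker, fell from 675 ± 16.1 to 410 ± 47.1 FPKM. The stem cell markers Slamf1 (1.73 ± 0.708 to 9.91 ± 2.2 FPKM) and Procr (30.1 ± 3.14 to 49.9 ± 9.58 FPKM) rose. Il1r1 is also known in stromal and endothelial cells. The 6 markers listed for those cells summed to 11.4 to 22.8 FPKM in the WT-labelled libraries and to 10.1 to 12.1 FPKM in the KO-labelled ones. Of the 3 tested, 1 fell (Cxcl12, from 10.3 ± 3.6 to 4.99 ± 0.72 FPKM), beside 5.43% of all tested genes. The other 5 summed to 5.03 to 9.33 and to 4.56 to 7.35 FPKM, and none of the 6 was at 0 in all libraries. The part of these markers in the fall of Il1r1 was not tested.

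Il1rap encodes the co-receptor that pairs with the receptors of interleukin 1, interleukin 33 and interleukin 36. It was at 2.16, 2.42 and 1.72 FPKM in the WT-labelled libraries and at 2.06, 2.62 and 3.81 FPKM in the KO-labelled ones. The groups overlapped, with KO replicate 3 highest. The difference of 0.29 on the log2(FPKM + 1) scale did not pass (95% interval -0.21 to 0.78, limma adjusted p = 0.432), and this interval leaves room for a rise. Set against its co-receptor, the ratio of Il1r1 to Il1rap in FPKM was 6.71, 5.71 and 6.65 in the WT-labelled libraries and 1.82, 1.34 and 1.2 in the KO-labelled ones. The ratio was lower in every KO-labelled library, with means of 6.36 ± 0.562 and 1.45 ± 0.328. This ratio was chosen after the values were seen, and with 3 against 3 libraries an exact permutation test cannot go below p = 0.1.

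Il18r1 (chromosome 1, 40465552 to 40500854, plus strand) is the other member that fell. It was at 1.65, 1.65 and 2.22 FPKM in the WT-labelled libraries and at 0.408, 0.396 and 0.0776 FPKM in the KO-labelled ones. The groups did not overlap, and KO replicate 3 was lowest. Recovered reads were few: 49, 46 and 66 against 14, 13 and 2, in all 161 against 29. The difference was -1.14 ± 0.23 (SE) on the log2(FPKM + 1) scale, which understates that of a low gene (limma adjusted p = 0.0163). It missed the threshold without each WT library in turn (limma adjusted p = 0.0510, 0.0586 and 0.0716 without WT replicates 1, 2 and 3) and with the Y covariate (0.129), and spanned 0.00438 to 0.129 across 12 alternatives. The interleukin 18 receptor needs a second chain, Il18rap, which was at 6.33, 5.38 and 5.69 FPKM in the WT-labelled libraries and at 5.23, 3.19 and 2.07 FPKM in the KO-labelled ones. These groups did not overlap either, although the highest KO value came close to the lowest WT value. The difference of -0.65 ± 0.24 (SE) did not pass (limma adjusted p = 0.119). Without KO replicate 1 it was -0.92 and passed (limma adjusted p = 0.0366; 0.0366 to 0.319 across alternatives). The ratio of Il18r1 to Il18rap, also chosen after the values were seen, went from 0.32 ± 0.0659 to 0.0798 ± 0.0433.

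Il18r1 is known for high levels in T, NK and innate lymphoid cells. Of 10 markers of those cells, 5 were tested, 1 fell and 2 rose, where 5.43% and 5.48% of all tested genes did. The list summed to 361 to 426 FPKM in the WT-labelled libraries and to 202 to 307 FPKM in the KO-labelled ones, but the granule gene Nkg7 made up 92.9% to 98% of each sum and is the gene that fell (390 ± 34.1 to 240 ± 51.9 FPKM). The summed level of the other 9 went the opposite way without overlap, at 8.7 to 9.46 FPKM against 12.3 to 15.6 FPKM. This sum was taken after the values were seen, and the 9 did not move alike. Gata3 was higher in every KO-labelled library and Il7r had a lower mean, neither of them called. Il2ra had a higher mean and Cd3d and Cd3e lower ones, all too low for the main test. Their recovered reads were 2 against 5, 2 against 0 and 4 against 1 in all. Rora (2.27 ± 0.355 to 4.1 ± 0.198 FPKM) and Klrb1c (0.573 ± 0.315 to 2.52 ± 0.7 FPKM) rose, and Cd3g and Klrg1 were at 0 in every library. Klrb1c passed the filter only through its KO values, so the count of called markers gives no support beyond its single genes. The part of such cells in the fall of Il18r1 was not tested.

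**Figure D2:**
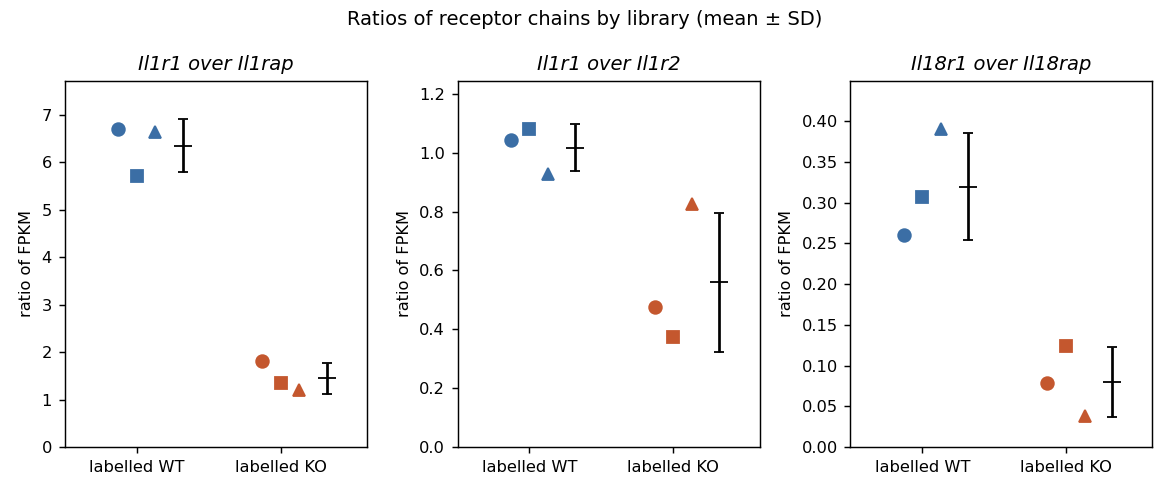
Ratios of FPKM (vertical axes, from 0) of receptor chains in each library, labelled WT in blue and labelled KO in orange, with the mean and SD as a black bar. The ratio of Il1r1 to Il1rap is 5.71 to 6.71 against 1.2 to 1.82, and the ratios of Il1r1 to the decoy Il1r2 and of Il18r1 to Il18rap are also lower in every KO-labelled library.

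Il1rl1 (chromosome 1, 40429570 to 40465415, plus strand) went the other way. It was at 0.395, 0.643 and 0.395 FPKM in the WT-labelled libraries and at 0.864, 0.923 and 1.04 FPKM in the KO-labelled ones, which is 17, 26 and 17 reads against 43, 44 and 39. The KO-labelled libraries were all above those labelled WT. Its mean lay under 1 FPKM, so the main test left it out. With no filter on low values the difference was 0.40 ± 0.14 (SE) on the log2(FPKM + 1) scale and did not pass (limma adjusted p = 0.182), where 3.04% of 19373 genes were called. The table gives 1 value per gene, so the membrane and soluble forms of ST2 are not separated.

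Mast cells and type 2 innate lymphoid cells are known for high Il1rl1. Of 10 mast cell and basophil markers, 7 were tested and 3 rose, where 5.48% of all tested genes did. The chymase gene Cma1 went from 0.149 ± 0.258 to 9.32 ± 4.8 FPKM, the histidine decarboxylase gene Hdc from 1.77 ± 0.889 to 4.36 ± 1.04 FPKM, and the tryptase gene Tpsb2 was listed at 0 in all WT-labelled libraries and at 3.46, 6.96 and 14 FPKM in the KO-labelled ones. Cma1 and Tpsb2 passed the filter only through their KO values, so this count gives no support beyond its single genes. The summed level of all 10 overlapped, at 53.9 to 92.3 FPKM in the WT-labelled libraries and 68.2 to 137 FPKM in the KO-labelled ones, and no marker was at 0 throughout. The carboxypeptidase gene Cpa3, the most abundant of them, was at 50 ± 12.9 and 56 ± 24.6 FPKM, and the other 9 summed to 13.4 to 27.7 and to 27.7 to 52.3 FPKM. Mcpt8 (13.7 ± 4.51 to 12.3 ± 9.42 FPKM) and Prss34 (0.772 ± 0.677 to 0.494 ± 0.855 FPKM) alone had lower means in the KO-labelled libraries. The lymphoid markers given for Il18r1, apart from Nkg7, also summed higher in every KO-labelled library. The part of mast and lymphoid cells in the values of Il1rl1 was not tested.

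These 3 members share the cluster with 3 more receptor genes of the same family, all on the same strand. Il1r2, a decoy receptor that binds interleukin 1 without signalling, was at 13.9, 12.8 and 12.3 FPKM in the WT-labelled libraries and at 7.88, 9.42 and 5.51 FPKM in the KO-labelled ones. Its log2(FPKM + 1) fell by 0.73 ± 0.18 (SE, limma adjusted p = 0.032), a call lost in 7 of 13 alternatives, among them those without WT replicate 1, WT replicate 2, WT replicate 3 or KO replicate 1 (0.113, 0.111, 0.0863 and 0.0688; 0.0217 to 0.307 across alternatives). The ratio of Il1r1 to Il1r2, chosen after the values were seen, went from 1.02 ± 0.0804 to 0.559 ± 0.237. Il1rl2, a receptor of interleukin 36, lies between Il1r1 and Il1rl1. Its means of 2.03 ± 0.32 and 1.22 ± 0.677 FPKM did not differ past the threshold (limma adjusted p = 0.259). Along the cluster, then, Il1r2, Il1r1 and Il18r1 fell, while Il1rl2 and Il18rap had lower means that did not pass. Il1rl1, whose last exon ends 136 bases before the start of Il18r1, was higher in every KO-labelled library. The difference of Il1rl1 did not pass in the fit with no filter (limma adjusted p = 0.182). The library kit does not mark strand, but these 6 genes share one strand, and none shares exon bases with a member.

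**Figure D3:**
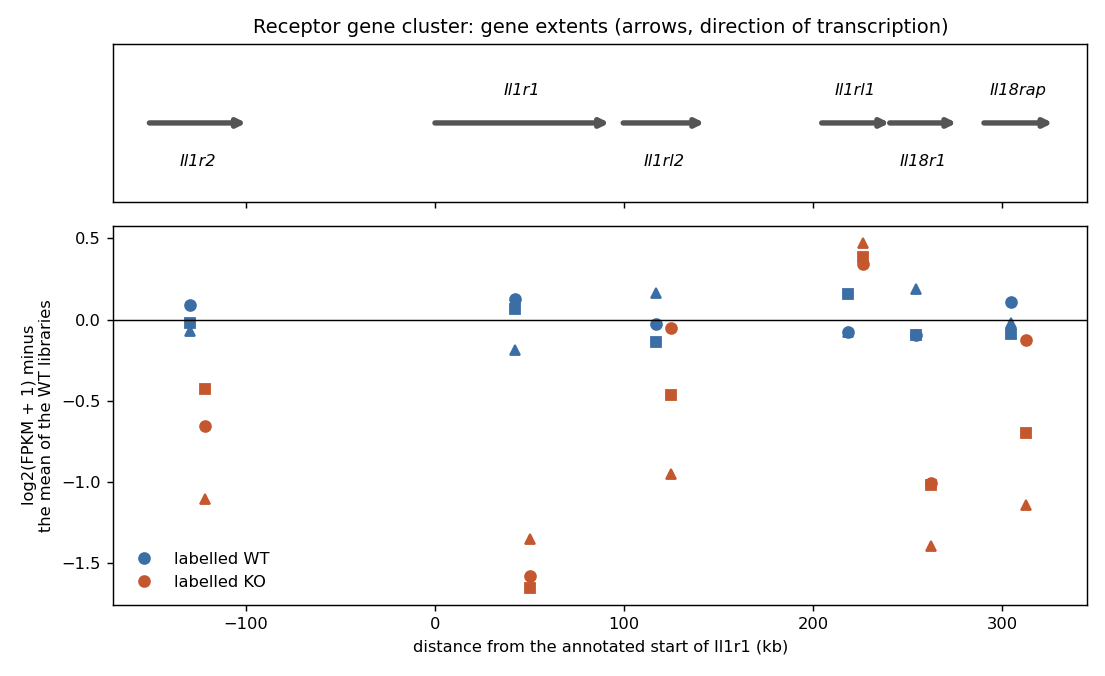
Top, extents of 6 receptor genes on chromosome 1 by distance from the start of Il1r1 (kb), with arrows in the direction of transcription. Bottom, log2(FPKM + 1) of each library minus the mean of the WT-labelled libraries (blue, labelled WT; orange, labelled KO; circle, square and triangle for replicates 1 to 3), where Il1rl1 alone lies above 0 in all 3 KO-labelled libraries.

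Both Toll-like receptors among the members had overlapping groups. Tlr2, which senses bacterial lipoproteins, was at 10.3, 10.8 and 6.64 FPKM in the WT-labelled libraries and at 9.29, 6.58 and 6.97 FPKM in the KO-labelled ones. The WT replicate 3 library lay among the KO values. The difference was -0.24 (95% interval -0.69 to 0.21, limma adjusted p = 0.483). Tlr4, the receptor of lipopolysaccharide, was at 1.44, 1.84 and 2.07 FPKM in the WT-labelled libraries and at 1.4, 1.17 and 1.53 FPKM in the KO-labelled ones. The difference was -0.23 (95% interval -0.69 to 0.22, limma adjusted p = 0.494), from 182 and 147 reads in all. For both genes the interval holds no change as well as a moderate fall.

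Tlr4 works with the co-receptors Ly96 (MD-2) and Cd14, named here after their values were seen. Ly96 was at 13.6 ± 3.87 and 12.7 ± 1.99 FPKM. Cd14 was at 26.7, 35.2 and 40.2 FPKM in the WT-labelled libraries and at 22.2, 74.6 and 151 FPKM in the KO-labelled ones. The KO libraries spread around the WT values, and the difference did not pass (limma adjusted p = 0.316). Without KO replicate 1 it passed (1.63 on the log2 scale, limma adjusted p = 0.017; 0.017 to 0.692 across alternatives). Mature myeloid cells carry these receptors too. The 8 neutrophil markers summed to 118 to 238 FPKM in the WT-labelled libraries and to 161, 29.0 and 62.2 FPKM in the KO-labelled ones, with none of 7 tested called and none at 0 throughout. The 9 monocyte, macrophage and dendritic cell markers summed to 10.6 to 14.5 and to 17.1 to 37.3 FPKM, with none at 0 throughout. Of 4 tested, 1 was higher (Fcgr3, 1.71 ± 0.592 to 9.75 ± 4.48 FPKM), beside 5.48% of all tested genes. Without Fcgr3 the sums of the other 8 overlapped, at 9.06 to 12.1 and 11.7 to 22.9 FPKM. The part of mature myeloid cells in the values of Tlr2, Tlr4 and Cd14 was not tested.

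The 4 intracellular members held the 2 highest levels of the set. Irak1, the kinase that MYD88 and IRAK4 activate, was at 59.1, 65.3 and 61.5 FPKM in the WT-labelled libraries and at 49.2, 55.6 and 48.2 FPKM in the KO-labelled ones. The groups did not overlap, yet the difference of -0.28 ± 0.10 (SE) did not pass (limma adjusted p = 0.103; 0.0573 to 0.521 across alternatives). Irak1 lies on the X chromosome. The 2 KO-labelled libraries that lacked Ddx3y had the 2 lowest values, and with the Y covariate the difference was -0.15 (limma adjusted p = 0.521).

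Myd88, the adaptor, was at 29.7, 30.7 and 26.5 FPKM in the WT-labelled libraries and at 35.7, 27.3 and 34.8 FPKM in the KO-labelled ones. KO replicate 2 lay among the WT values. The difference of 0.16 did not pass (95% interval -0.13 to 0.44, limma adjusted p = 0.46), and its sign turned with the Y covariate (-0.080). Of the exon bases of Myd88, 11.3% are shared with Acaa1a on the other strand. Acaa1a was at 12.8 to 15 FPKM in all 6 libraries, and the authors' treatment of shared bases is not stated in the labels.

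Irak4, the first kinase of the complex, was at 6.95, 6.80 and 6.28 FPKM in the WT-labelled libraries and at 5.30, 6.17 and 5.98 FPKM in the KO-labelled ones. All 3 KO values lay just under the lowest WT value, and the difference of -0.17 did not pass (95% interval -0.49 to 0.14, limma adjusted p = 0.46). Irak4 shares 7.87% of its exon bases with Twf1 on the other strand. Traf6 was at 7.64, 6.73 and 7.35 FPKM in the WT-labelled libraries and at 5.64, 5.23 and 7.97 FPKM in the KO-labelled ones. KO replicate 3 was the highest of all 6, and the difference of -0.20 did not pass (95% interval -0.58 to 0.19, limma adjusted p = 0.496).

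**Figure D4:**
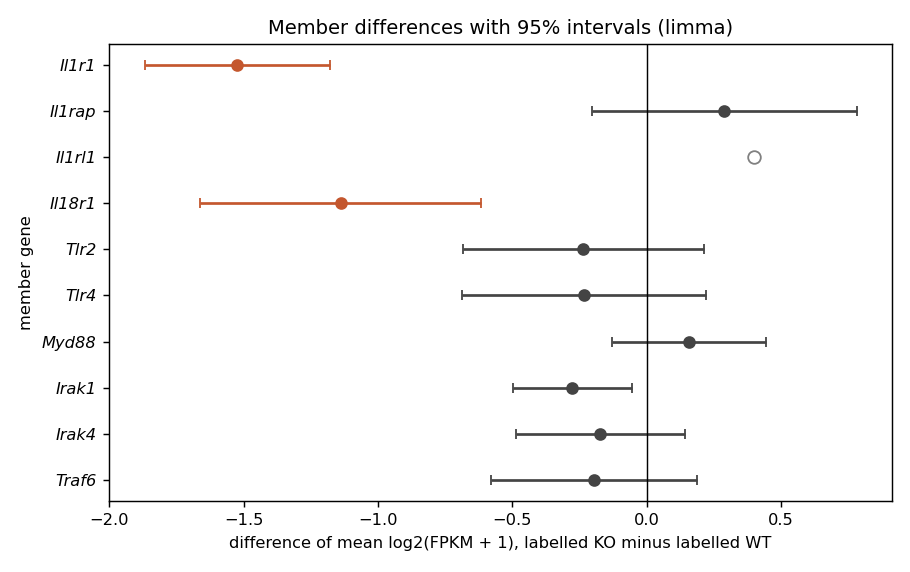
Difference of mean log2(FPKM + 1), labelled KO minus labelled WT, for each member (horizontal axis) with its 95% interval from limma; orange members passed the test, and the open point is Il1rl1, which was not in the main test. Il1r1 and Il18r1 stand at -1.53 and -1.14, and the other tested members lie between -0.28 and 0.29.

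Across the members, 4 of 9 tested had groups that did not overlap, all lower in the KO-labelled libraries (Il1r1, Il18r1, Irak1 and Irak4), where 16.6% of all tested genes were lower and 16.2% higher without overlap, and 32.8% did not overlap in either direction. The median difference of the 9 was -0.23 on the log2(FPKM + 1) scale and that of all tested genes -0.002. The filter shaped both figures: Il18r1 passed it only through its WT values, and Il1rl1, higher without overlap, was left out. Neither figure gives support beyond the single genes. Per length, the order of mean levels in the WT-labelled libraries was Irak1 (62 FPKM), Myd88 (29), Il1r1 (13.2), Tlr2 (9.24), Traf6 (7.24), Irak4 (6.68), Il1rap (2.1), Il18r1 (1.84), Tlr4 (1.79) and Il1rl1 (0.478). Neighbours whose WT ranges overlapped were Tlr2 with Traf6, Traf6 with Irak4, Il1rap with Il18r1, and Il18r1 with Tlr4. In the KO-labelled libraries, Il1r1 went from the third place to the sixth and Il18r1 from the eighth to the last, below Il1rl1.

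Beyond the members, 66 genes of the same pathway were listed, from ligands to the kinases above NF-kB. Of the 48 tested, 6 fell and 2 rose, where 5.43% and 5.48% of all tested genes did, and the median difference was -0.08. The sub-lists that follow are small, and their counts read against the same shares. Of the 66, 7 were at 0 in every library. Neither of the 2 tested receptors among the other interleukin 1 family receptors, Il18rap and Il1rl2, was called. The genes that fell were Il1b, Il1r2, Ticam2, Traf3, Tnfaip3 and Zc3h12a, and those that rose were Il18bp and Irak3.

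Of 6 tested ligands and decoys, 2 fell and 1 rose. Il1b, the inducible ligand of Il1r1, was at 83.4, 128 and 148 FPKM in the WT-labelled libraries and at 41, 32.9 and 22.3 FPKM in the KO-labelled ones. The groups did not overlap, and the fall of 1.87 (limma adjusted p = 0.00267) held in 13 of 13 alternatives. The neutrophil sums given for Tlr2 overlapped between the groups, and their part in the fall of Il1b was not tested. Il18bp, a secreted protein that binds and neutralises interleukin 18, rose from 4.23 ± 1.19 to 7.49 ± 1.14 FPKM (limma adjusted p = 0.0451). That call was lost in 9 of 13 alternatives, among them those without WT replicate 1, WT replicate 2 and each KO library (0.0392 to 0.269 across alternatives).

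None of 9 tested Toll-like receptors and co-receptors was called, and none of 13 genes of the TAK1, IKK and MAP3K step. The most abundant of these were the chaperone gene Hsp90b1 (119 ± 8.16 and 101 ± 6.15 FPKM) and Unc93b1, which carries endosomal Toll-like receptors (63.1 ± 4.42 and 55.4 ± 11.2 FPKM). In the kinase step they were the ubiquitin-conjugating enzyme gene Ube2n (65.8 ± 4.93 and 67 ± 6.22 FPKM) and Tbk1 (26.3 ± 3 and 25.2 ± 1.69 FPKM). In each of these sub-lists 2 genes had groups that did not overlap, all lower in the KO-labelled libraries, beside 16.6% of all tested genes.

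Among 11 tested adaptors and proximal kinases, Irak3, a kinase-dead relative that damps the IRAK complex, was at 12.7, 14.1 and 14.4 FPKM in the WT-labelled libraries and at 23.9, 22.4 and 27.3 FPKM in the KO-labelled ones. Every KO value lay above every WT value, and the rise of 0.79 ± 0.12 (SE) passed (limma adjusted p = 0.00481). It missed the threshold only with the Y covariate among 13 alternatives (0.0676; 0.0022 to 0.0676 across alternatives). Ticam2, the TRAM adaptor of Tlr4, fell from 6.24 ± 0.938 to 3.46 ± 0.553 FPKM (limma adjusted p = 0.0334), and Traf3 fell from 3.02 ± 0.451 to 1.33 ± 0.222 FPKM (limma adjusted p = 0.0331). Each of these calls was lost in 8 of 12 alternatives. For both these included the fits that left out any one WT-labelled library or KO replicate 2, for Ticam2 also without KO replicate 3 and for Traf3 without KO replicate 1 (0.0284 to 0.131 and 0.00819 to 0.190 for the one and the other across alternatives).

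Of 7 brakes on TRAF6 signalling, 2 fell. Tnfaip3, which encodes the ubiquitin-editing enzyme A20, was at 63.7, 74.5 and 67.8 FPKM in the WT-labelled libraries and at 33.8, 30.3 and 41.6 FPKM in the KO-labelled ones. The groups were far apart, and the fall of 0.95 ± 0.13 (SE, limma adjusted p = 0.00304) held in 13 of 13 alternatives. Zc3h12a, which encodes the mRNA-degrading enzyme regnase-1, fell from 27.1 ± 3.87 to 9.83 ± 3.18 FPKM (limma adjusted p = 0.00432). It missed the threshold only with the Y covariate (0.0530; 0.00116 to 0.0530 across 13 alternatives). Of the 7 brakes, 4 were lower and 2 higher without overlap, beside 16.6% and 16.2% of all tested genes. Among called genes known to damp the pathway, directions therefore differed. Irak3 and Il18bp rose, while Tnfaip3, Zc3h12a and the decoy Il1r2 fell.

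**Figure D5:**
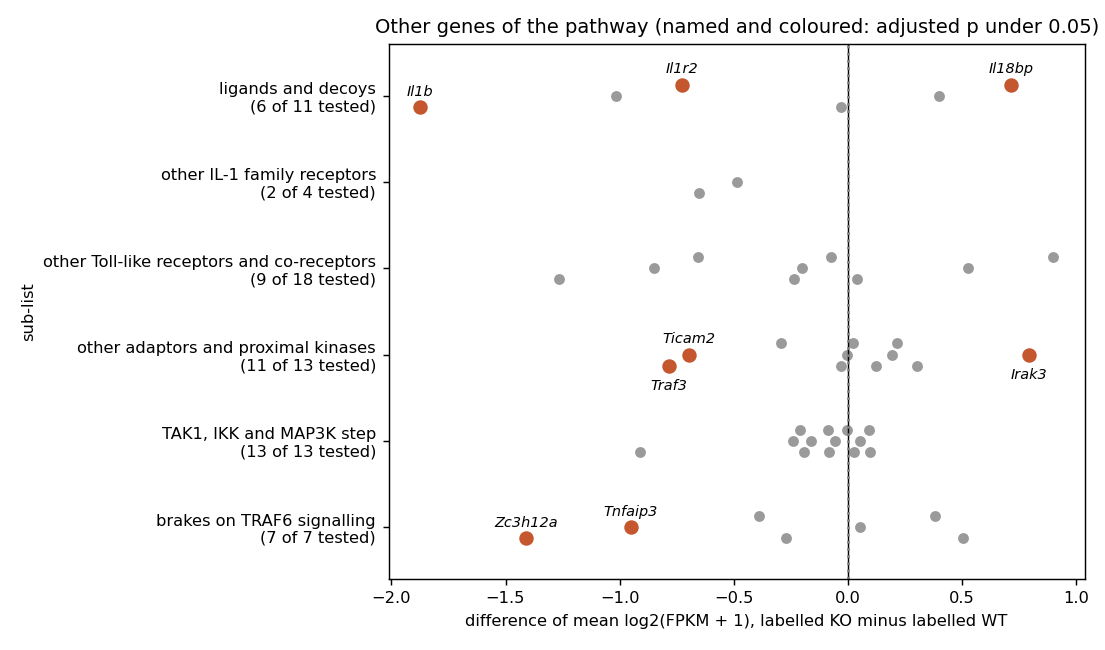
Difference of mean log2(FPKM + 1), labelled KO minus labelled WT (horizontal axis), of the 48 tested genes of the pathway list in 6 sub-lists; named orange points passed the test at an adjusted p under 0.05 and the dotted line is the median of all tested genes (-0.002). Il1b and Zc3h12a lie farthest left among the named genes, Irak3 and Il18bp farthest right, and no gene of the TAK1 and IKK step is named.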

How the data were processed

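Per the labels' protocols, RNA of sorted cells was made into cDNA with the SMART-Seq v4 kit and libraries with Nextera XT, which does not mark strand. Per the submitters' processing notes, the tools were DESeq2 1.18.1, HTSeq 0.6.1, TopHat2 2.1.1 and bcl2fastq 2.19.1.403 on build mm10, without roles or order. The deposited table holds FPKM for 1 column per library, scaled by the authors. The sources used here do not give the annotation.

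Libraries labelled KO and WT were compared with limma 3.58.1 (R 4.3.3; lmFit, eBayes with trend) on log2(FPKM + 1). Genes were tested where their mean over the 6 libraries reached 1 FPKM, and p-values are two-sided. Reads were recovered from the FPKM, whose ratios between libraries matched ratios of whole reads (relative tolerance 1e-12) in all 17183 genes above 0 in 2 or more libraries. They rest on GENCODE M21 exon lengths in 50.5% of genes and are lower bounds in the others, among them Il1r1, Il18r1 and Tlr2. Positions are from GENCODE M21. The test was also run on simulated data, and the outcome of that run is not given here.

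All members are named, as are called genes of the pathway list and, in sub-lists with no call, the 2 most abundant genes. Marker genes named are Kit, Ly6a, called mast cell markers and those at 0 throughout. Cd34, Slamf1, Procr, Cpa3, Cxcl12, Ly96, Cd14 and the ratios were chosen after their values were seen. So were Nkg7, Rora, Klrb1c, Gata3, Il2ra, Il7r, Cd3d, Cd3e, Mcpt8, Prss34 and Fcgr3. The members and lists were chosen with earlier results of these data known. Alternatives were a pseudocount of 0.1, no filter, a higher filter of 5 FPKM, quantile normalisation, each library left out, a block for replicate number, the presence of Y-linked transcripts as a covariate, and limma's voom on recovered reads.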

Additional observations from a re-analysis of the deposited data

How the results depend on the processing

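Il1r1 was called lower in all 13 alternatives. The number of members called lower (2 in the main test) was 1 with the filter at 5 FPKM, which leaves Il18r1 out, and 1 with the Y covariate. It was 1 to 2 when single libraries were left out. No member was called higher in any setting. In the pathway list, 6 genes fell and 2 rose in the main test. With no filter 3 fell and 1 rose, and with the Y covariate 2 fell and 0 rose. With single libraries left out 3 to 6 fell and 1 to 2 rose. Over all genes, 1240 were called in the main test, 588 with no filter, 373 with the Y covariate, 1566 with voom on recovered reads and 370 to 1598 without single libraries.

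With the replicate block 805 genes were called, and of the pathway list 4 fell and 1 rose, while the calls of Il1r1 and Il18r1 held (limma adjusted p = 0.00518 and 0.0449). Same-numbered libraries did not deviate together (r = -0.03, 0.05 and -0.12 for replicates 1, 2 and 3), and unlike numbers gave -0.16 to 0.17. No pairing by number was seen, which with 3 libraries per group does not exclude one.

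Signs turned in genes that no setting called: Myd88 (-0.080 with the Y covariate), Ube2n (-0.030 without WT replicate 1 and -0.043 without KO replicate 2, within -0.043 to 0.088 when single libraries were left out) and Tbk1 (0.033 without WT replicate 1, within -0.11 to 0.033 likewise). Depth limits Il18r1 and Il1rl1 most. The causes of these changes were not tested.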
